A study of Rattus norvegicus with 40 samples.

Results

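The livers described here came from adult Sprague Dawley rats weighing 125 to 150 g that had gone without food for 48 h, were injected intraperitoneally with rapamycin (250 µg per 100 g of body weight) or with dimethyl sulfoxide (DMSO), its solvent, and were then given free access to food for 3 h, starting 60 min after the injection. Total RNA of frozen whole liver was hybridised to Affymetrix Rat Gene 1.0 ST arrays. The samples were chosen by their titles: 3 livers per treatment, 6 of the 40 arrays of the series. Every rat of both groups was fasted and refed, so the comparison is rapamycin against solvent during refeeding, and no liver of a rat left unfasted or still fasting stands beside it. The labels call the hepatocytes of this model non-proliferating and the arrays of a group biological replicates. Treatment is spelled "Rapamycin" in the titles and "Rafamycin" in the injection field, and was read as the same drug.

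Rapamycin inhibits the kinase mTOR in its complex 1, which insulin and amino acids activate when an animal eats and which promotes ribosome production, protein synthesis and lipid synthesis while restraining autophagy. In liver, food after a fast also acts through insulin, Akt and the FOXO transcription factors to silence the gluconeogenic program. The comparison asks which transcripts of the liver differ after the first hours of feeding when that kinase is inhibited.

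Levels are log2 intensities, differences are log2 rapamycin minus DMSO with the standard error (SE) of a limma fit, and values are listed in the order of livers 1, 2 and 3 of each treatment (n = 3 livers per group throughout). P-values measure only the spread between these livers. A gene's groups are called apart when all 3 rapamycin livers lay above, or all below, all 3 DMSO livers. A level depends on a gene's own probes and was compared between livers, not between genes. Where a gene had several transcript clusters (the probe sets that the array summarises as 1 value), the gene lists used the brightest.

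Rapamycin 2 and DMSO 3 stood apart from the other livers. The total RNA array of rapamycin 2 held exocrine pancreas genes at levels not seen elsewhere: of 22 such genes listed after the values were seen, 21 had a transcript cluster, and all 21 exceeded each of the other 5 arrays by more than 2 on the log2 scale. Their mean level was 11.93 in rapamycin 2 against 6.51 to 6.79 in the other 5 total RNA arrays, and it was 6.40 to 6.58 in the polysome RNA of the 6 livers with the same treatments and numbers, rapamycin 2 included. The carboxypeptidase gene Cpa1 is an example, at 5.87, 6.32 and 6.38 under DMSO and 6.47, 13.13 and 6.27 under rapamycin. Islet genes were not raised with them: the insulin gene Ins2 was at 6.90 in rapamycin 2 and 6.54 to 7.12 in the other 5.

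A further pattern was shared by DMSO 3 and rapamycin 2, which had opposite treatments. In those livers 13 clusters were more than 2 above, and 3 more than 2 below, all of the other 4 livers, and the other 8 pairings of 1 DMSO with 1 rapamycin liver gave 0 above and 0 or 1 below. The higher ones included Lcn2, an iron-carrier protein made in inflammation (8.99, 9.18 and 13.74 under DMSO and 8.71, 13.59 and 8.89 under rapamycin), and the chemokine and interferon-response genes Cxcl10 and Gbp5. The lower ones were Cyp7a1, the rate-limiting enzyme of bile acid synthesis (13.28, 13.13 and 9.39 under DMSO and 13.07, 10.87 and 13.12 under rapamycin), G6pc1, the catalytic subunit that releases free glucose (10.57, 10.32 and 6.80 under DMSO and 9.95, 7.53 and 10.07 under rapamycin), and Arrdc3. Polysome RNA showed the same split, with Lcn2 at 8.32, 8.01 and 13.76 under DMSO and 9.39, 13.63 and 10.36 under rapamycin. Genes picked in this way overlap between the treatments by construction. The part of this pattern, or of the exocrine genes, in the differences below was not tested. For most genes and lists whose difference moved by more than 1.5 times when both were left out, a choice made after the values were seen, that value is given as well.

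**Figure D1:**
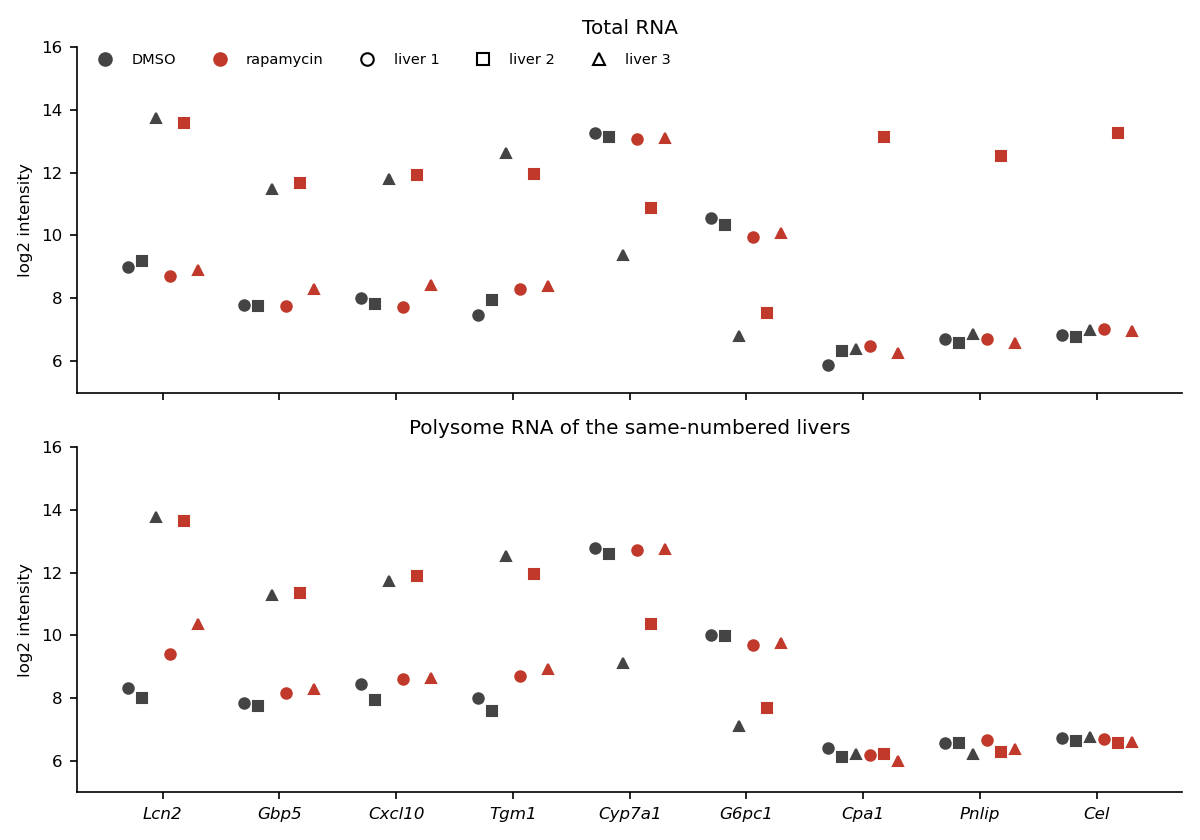
Log2 intensity (vertical axis) of 9 genes in the 6 refed livers, in total RNA (upper panel) and in polysome RNA of the same livers (lower panel), each point 1 liver, colour the treatment and shape the liver number. Lcn2, Gbp5, Cxcl10 and Tgm1 were high, and Cyp7a1 and G6pc1 low, in DMSO 3 and rapamycin 2 in both fractions, while Cpa1, Pnlip and Cel were high in rapamycin 2 in total RNA alone.

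Beside the exocrine genes, rapamycin 2 held Des, 1 gene of the stellate cell and fibroblast list, at 10.33 in total RNA, against 7.43 to 8.02 in the other livers. That list of 19 genes, Des included, averaged 9.46, 9.36 and 9.47 under DMSO and 9.39, 9.71 and 9.34 under rapamycin. In polysome RNA of rapamycin 2 Des was at 7.59. Hepatocyte markers fitted the tissue label. The 14 hepatocyte markers averaged 13.77, 13.82 and 13.68 under DMSO and 13.84, 13.83 and 13.84 under rapamycin, with albumin (Alb) at 14.45, 14.44 and 14.41 under DMSO and 14.42, 14.37 and 14.46 under rapamycin. Granulocyte markers were highest in rapamycin 2 and then DMSO 3 (6.18, 6.54 and 6.90 under DMSO and 6.53, 7.34 and 6.39 under rapamycin, 14 genes). Endothelial markers were, beside hepatocyte markers, the one class whose list mean was apart between the treatments, at 10.08, 10.07 and 10.02 under DMSO and 10.23, 10.28 and 10.26 under rapamycin over 13 genes tested of 18 listed. Within that list 5 of 13 genes were apart and higher, among them Plvap, which spans the windows of fenestrated endothelium (0.48 ± 0.17), and Fcgr2b, an Fc receptor of sinusoidal cells (0.34 ± 0.15), where 8.6% of all transcript clusters tested were apart and higher. The list median was 0.25, or 0.16 without DMSO 3. In whole-tissue RNA more cells of a type and more RNA per cell cannot be told apart. Macrophage, stellate cell, bile duct, lymphocyte, granulocyte, erythroid and platelet marker lists overlapped and had median differences between -0.051 and 0.20.

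No transcript cluster differed between the treatments after correction. Of 10860 clusters tested, 0 passed an adjusted p of 0.05 in the limma fit of the 6 arrays, and the smallest adjusted p was 0.573. At an unadjusted p under 0.05 there were 805 (7.41%), 603 higher (5.55%) and 202 lower (1.86%) under rapamycin. That lean to higher values depended on scaling: higher clusters were 74.9% of those under 0.05 as the authors scaled the arrays, and 60.7%, 57.4% and 61.9% after cyclic loess, quantile normalization or median centring. The groups were apart and higher for 934 clusters (8.6%) and apart and lower for 555 (5.11%), 1489 in all (13.7%), and the median difference of all clusters was 0.03. Adding the polysome arrays of the same livers as further data, with the liver as a random block, still gave 0 calls, with a smallest adjusted p of 0.060, held by Ints2 and Akr7a3. The genes below are therefore described by their values and by whether the livers overlapped, and none of them can be called changed on this test.

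These counts depended on the livers included. Without DMSO 2 the count at an unadjusted p under 0.05 was 2415, and without each of the other 5 livers in turn it was 291 to 473. With DMSO 3 and rapamycin 2 both left out, 287 clusters were under 0.05 and 0 passed the adjusted threshold.

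Of the fasting genes that insulin normally silences, Pck1 was higher in every rapamycin liver and Igfbp1 was higher on average with overlap. G6pc1 ranged too widely within both groups for its mean difference to be read. Outside DMSO 3 and rapamycin 2, G6pc1 was at 10.57 and 10.32 under DMSO and at 9.95 and 10.07 under rapamycin. Pck1 encodes cytosolic phosphoenolpyruvate carboxykinase, which commits carbon to gluconeogenesis, and its levels were 10.34, 10.57 and 10.42 under DMSO and 12.52, 12.60 and 11.48 under rapamycin. All 3 rapamycin livers lay well above the DMSO livers, which were close together, and the difference was 1.76 ± 0.30, a 3.38-fold higher mean. Without DMSO 3 and rapamycin 2 it was 1.54. Igfbp1, a secreted IGF-binding protein that FOXO factors induce and insulin represses, was at 10.04, 9.24 and 11.06 under DMSO and 12.38, 13.40 and 10.93 under rapamycin. Its difference was larger, 2.12 ± 0.65, but the groups overlapped because rapamycin 3 lay below DMSO 3, and it was 2.01 without DMSO 3 and rapamycin 2.

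The upstream sequences of those genes are shown because each holds a short motif known from the hormonal control of that gene. Capitals mark the only match, on either strand, within the 250 bases before the RefSeq start (assembly GRCr8, both genes on the plus strand): a cAMP response element, TNACGTCA, in Pck1 at chr3:182348322-182348571, from base 93 to base 86 before the start, and an insulin response element, CAAAACA, in Igfbp1 at chr14:86261027-86261276, from base 121 to base 115.
Pck1: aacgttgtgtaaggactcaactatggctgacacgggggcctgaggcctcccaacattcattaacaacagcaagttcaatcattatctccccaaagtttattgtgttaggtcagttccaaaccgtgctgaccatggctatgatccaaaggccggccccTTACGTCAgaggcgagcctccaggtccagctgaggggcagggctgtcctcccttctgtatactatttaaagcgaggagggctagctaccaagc
Igfbp1: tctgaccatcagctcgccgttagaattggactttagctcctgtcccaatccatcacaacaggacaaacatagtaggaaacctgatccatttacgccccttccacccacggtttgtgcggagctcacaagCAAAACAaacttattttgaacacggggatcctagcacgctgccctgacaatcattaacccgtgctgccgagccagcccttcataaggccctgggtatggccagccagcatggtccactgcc
Across 33469 RefSeq promoters of that length, 2.88% held TNACGTCA and 5.46% held CAAAACA, and each was in 3 of the 30 promoters found of the gluconeogenesis and fasting list (10%). G6pc1, at -0.048 ± 1.07, also held CAAAACA. A match describes the letters and not the binding of a factor.

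The wider gluconeogenesis and fasting list followed these leaders only in part. Of 36 genes tested, 8 were apart and higher (22.2%, against 8.6% of all clusters) and 0 lower, with a median of 0.17 against 0.03 for all clusters. Besides Pck1 they included Gpt, an alanine aminotransferase (0.76 ± 0.29), and Nr4a1, an orphan nuclear receptor of the early response (0.53 ± 0.17). With all livers included G6pc1 overlapped completely. Ppargc1a, the coactivator of the fasting program, was at 9.42, 9.08 and 7.89 under DMSO and 9.13, 8.42 and 9.63 under rapamycin. Leaving out DMSO 3 brought the list median to 0.051, and leaving out DMSO 3 and rapamycin 2 brought it to 0.11.

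Genes that feeding normally turns on did not form a single pattern. Fasn, fatty acid synthase, was at 10.40, 10.87 and 11.07 under DMSO and 10.30, 9.62 and 10.45 under rapamycin, a difference of -0.66 ± 0.29 that was -0.26 without DMSO 3 and rapamycin 2. Thrsp, a lipogenic nuclear protein, lay the other way, at 9.72, 11.44 and 11.27 under DMSO and 11.71, 12.50 and 11.78 under rapamycin (1.18 ± 0.45). DMSO 1 was far below the other 5 livers for Thrsp. Malic enzyme, Me1 (0.76 ± 0.28), and the acetyl-CoA synthetase Acss2 (0.45 ± 0.19) were also apart and higher. In the lipogenic list 3 of 29 genes were apart and higher (10.3%, against 8.6% of all clusters) and 0 lower. The list median was 0.066, running from -0.068 without DMSO 3 to 0.22 without DMSO 2. It was 0.014 without DMSO 3 and rapamycin 2. The desaturase Scd (8.79, 9.86 and 9.67 under DMSO and 9.18, 10.06 and 8.97 under rapamycin) and the pyruvate kinase gene Pklr (11.48, 10.73 and 12.32 under DMSO and 11.31, 12.08 and 11.27 under rapamycin) overlapped. None of 22 cholesterol synthesis genes was apart, with the squalene synthase gene Fdft1 at 0.53 ± 0.31. Their median was 0.090, or 0.17 without DMSO 3 and rapamycin 2.

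**Figure D2:**
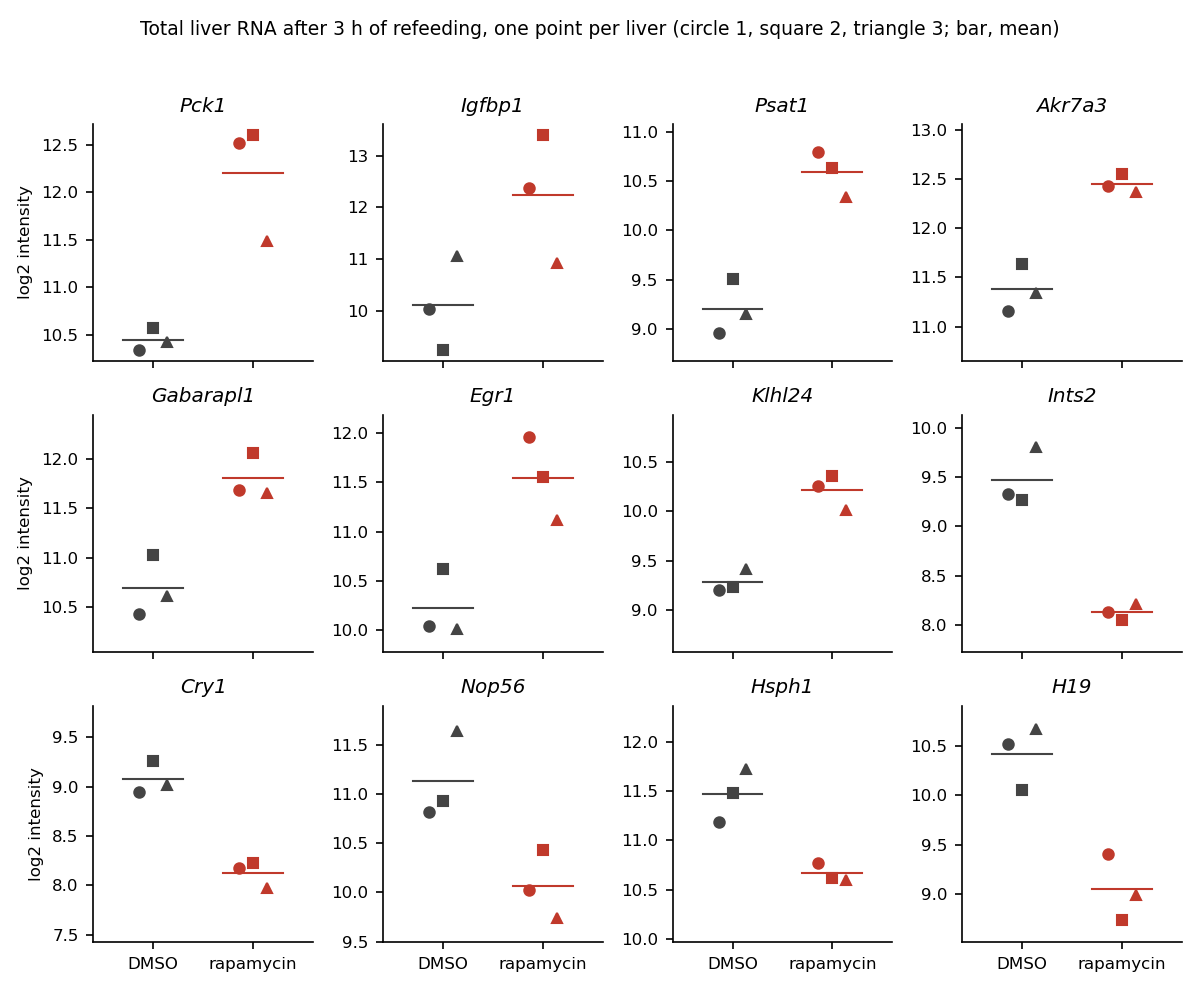
Log2 intensity (vertical axes, each panel on its own range) of 12 genes in total RNA of the 6 refed livers, 1 point per liver and a bar at each group mean. The groups did not overlap in 11 of the panels, and in the panel of Igfbp1 rapamycin 3 (10.93) lay below DMSO 3 (11.06).

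The first 2 enzymes of serine synthesis were higher in all rapamycin livers. Psat1, the aminotransferase of the pathway, was at 8.96, 9.50 and 9.16 under DMSO and 10.80, 10.64 and 10.34 under rapamycin, a difference of 1.39 ± 0.23 (2.61-fold). The DMSO livers did not overlap the rapamycin livers. A dimmer Psat1 cluster was apart in the same direction by a smaller amount, 0.62 ± 0.18. Phgdh, the dehydrogenase that starts the pathway, was at 9.24, 8.80 and 8.93 under DMSO and 10.16, 10.29 and 9.37 under rapamycin (0.95 ± 0.28), and rapamycin 3 was only slightly above the DMSO livers. The third enzyme, Psph, was at -0.19. In the serine and one-carbon list 5 of 29 genes were apart and higher (17.2%, against 8.6% of all clusters) and 2 lower (6.9%, against 5.11%). The list median was 0.13, or 0.054 without DMSO 3, 0.21 without rapamycin 2 and 0.075 without DMSO 3 and rapamycin 2. The 34 targets of the stress factor ATF4, a list that holds Psat1 and Phgdh, had a median of 0.032, close to that of all clusters. That median was 0.14 without DMSO 2, 0.12 without DMSO 3 and -0.018 without DMSO 3 and rapamycin 2. Of the 34 genes 5 were apart and higher (14.7%, against 8.6% of all clusters) and 2 lower (5.88%, against 5.11%). Slc6a9, a glycine transporter, was among the higher ones at 10.66, 10.25 and 10.15 under DMSO and 11.23, 10.91 and 11.22 under rapamycin (0.77 ± 0.21). Asparagine synthetase, Asns, overlapped (9.36, 9.77 and 10.96 under DMSO and 10.74, 11.04 and 10.41 under rapamycin).

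Some amino acid catabolism genes were higher while the list as a whole was not. In the list of urea cycle and amino acid catabolism 8 of 34 genes were apart and higher (23.5%, against 8.6% of all clusters). Only 1 was lower (2.94%, against 5.11%). The median was nevertheless 0.042, running from -0.047 without DMSO 3 to 0.21 without DMSO 1. It was -0.054 without DMSO 3 and rapamycin 2. Csad, a decarboxylase on the path from cysteine to taurine, was at 11.11, 10.97 and 10.29 under DMSO and 11.63, 11.70 and 11.53 under rapamycin (0.83 ± 0.24). Both E1 subunit genes of the branched-chain ketoacid dehydrogenase were apart, Bckdhb at 0.87 ± 0.26 and Bckdha at 0.83 ± 0.31, and DMSO 3 was the lowest liver for both. Cps1, the entry enzyme of the urea cycle, was the lower one at -0.19 ± 0.098. The difference that remained without DMSO 3 and rapamycin 2 was 0.54 for Csad, 0.40 for Bckdha and -0.12 for Cps1.

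Ribosome production genes were the group with the most lower members. Of 61 genes for nucleolar processing and assembly of ribosomes, 17 were apart and lower (27.9%, against 5.11% of all clusters) and 0 apart and higher, and 54 had a mean difference below 0. The list median was -0.35. Nop56, a core protein of the particles that methylate ribosomal RNA, was at 10.82, 10.93 and 11.64 under DMSO and 10.03, 10.43 and 9.75 under rapamycin, a difference of -1.06 ± 0.29. Emg1, a methyltransferase of the small subunit, was at 9.18, 9.27 and 9.39 under DMSO and 8.57, 8.95 and 8.62 under rapamycin (-0.57 ± 0.19). Tsr1, a late assembly factor of the small subunit (-0.88 ± 0.31), and Mybbp1a, a nucleolar regulator of ribosomal RNA synthesis (-0.86 ± 0.31), followed.

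The size of that median rested largely on DMSO 3. The mean level over the 61 genes was 9.37, 9.57 and 10.21 under DMSO and 9.24, 9.60 and 9.14 under rapamycin, so DMSO 3 was far above every other liver and DMSO 2 was level with rapamycin 2. Without DMSO 3 the median was -0.11, and without both DMSO 3 and rapamycin 2 it was -0.24 with 31 of 61 genes apart and lower, where 12.2% of all clusters were. After cyclic loess, quantile normalization or median centring of the 6 arrays the median was -0.42, -0.41 and -0.40. Mybbp1a is shown as a member whose upstream bases hold CACGTG, the E-box that MYC family factors read (capitals, chr10:57555208-57555457, plus strand, GRCr8, bases 156 to 151 before the start).
Mybbp1a: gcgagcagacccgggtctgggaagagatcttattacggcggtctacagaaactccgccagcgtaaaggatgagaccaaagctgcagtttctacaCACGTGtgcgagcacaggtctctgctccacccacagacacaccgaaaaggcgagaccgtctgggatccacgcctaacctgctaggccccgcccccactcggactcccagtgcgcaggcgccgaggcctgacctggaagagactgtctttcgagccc
CACGTG was in 10 of the 54 ribosome biogenesis promoters found (18.5%) and in 5.59% of all. Myc itself was higher under rapamycin, at 7.36, 7.66 and 8.45 under DMSO and 8.61, 10.52 and 8.30 under rapamycin, with overlap and with rapamycin 2 far above the rest.

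Other translation genes leaned in different directions. Of 18 cytosolic aminoacyl-tRNA synthetases, which load amino acids on tRNA, 5 were apart and lower (27.8%, against 5.11% of all clusters) and 0 higher, with a median of -0.25, or -0.041 without DMSO 3 and -0.16 without rapamycin 3. Iars1 led them at 11.41, 11.05 and 12.07 under DMSO and 10.85, 10.77 and 10.67 under rapamycin (-0.74 ± 0.26), and Farsa, a subunit of the phenylalanine enzyme, was at 11.11, 11.16 and 11.20 under DMSO and 10.77, 10.87 and 10.83 under rapamycin (-0.34 ± 0.16). Hars1 (-0.49) and Nars1 (-0.44) were highest in DMSO 3. Of 29 initiation factors 3 were apart and lower (10.3%, against 5.11% of all clusters) and 1 higher (3.45%, against 8.6%). The largest difference was that of Eif3a, the scaffold of eIF3 (-0.81 ± 0.30). With DMSO 3 and rapamycin 2 left out, the difference was -0.35 for Eif3a, -0.47 for Iars1, -0.28 for Hars1 and -0.22 for Nars1. Nop53, listed with the other mRNAs that carry a 5′ terminal oligopyrimidine tract, was apart and higher (0.73 ± 0.22). It was the only 1 of the 21 in that list (4.76%, against 8.6% of all clusters), and 0 were apart and lower. The list median was 0.13, or 0.017 without rapamycin 2 and 0.058 without DMSO 3 and rapamycin 2.

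Ribosomal protein mRNAs leaned to higher values. Of 69 genes, 67 had a mean difference above 0, where 54.9% of all clusters did. But 3 were apart and higher (4.35%, against 8.6% of all clusters) and 0 lower. The list median was 0.27. That median was 0.16 without rapamycin 2 and 0.10 without DMSO 3 and rapamycin 2. Rps6, whose protein is the classic phosphorylation readout of mTOR complex 1, was at 12.35, 12.69 and 12.30 under DMSO and 12.54, 12.73 and 12.37 under rapamycin. Ribosomal protein genes have many processed copies in the genome whose sequences the probes could share, so single values are uncertain: the 5 clusters named Rps10 differed by -0.35, -0.07, 0.05, 0.31 and 0.89. In polysome RNA of the same livers the list median was -0.27.

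Mitochondrial and proteasome genes also leaned to higher values, unevenly across livers. The oxidative phosphorylation list averaged 11.06, 11.51 and 10.80 under DMSO and 11.46, 11.66 and 11.50 under rapamycin over 70 genes, with DMSO 2 among the rapamycin livers and DMSO 1 and 3 below. Its median difference was 0.42, with 67 genes above 0, where 54.9% of all clusters were. Of its genes 11 were apart and higher (15.7%, against 8.6% of all clusters). Ndufb8, a complex I subunit, was at 9.33, 9.83 and 9.13 under DMSO and 10.12, 10.11 and 9.99 under rapamycin (0.65 ± 0.23), and Ndufa7, Dmac2l and Atp5me had groups apart by 0.65, 0.68 and 0.48. Leaving out DMSO 2 raised the list median to 0.62, leaving out DMSO 3 lowered it to 0.26, and leaving out DMSO 3 and rapamycin 2 gave 0.19. Of 68 mitochondrial ribosome genes 5 were apart and higher (7.35%, against 8.6% of all clusters) and 1 lower (1.47%, against 5.11%). Their median was 0.32, with Mrps33 at 0.87 ± 0.30 with the groups apart and Mrpl23 at 1.05 ± 0.35 with overlap. Of 41 proteasome genes 3 were apart and higher (7.32%) and 2 lower (4.88%). The proteasome median was 0.31, with Psmd8 at 0.66 ± 0.24 and Psmb1 at 0.74 ± 0.27. Without DMSO 3 and rapamycin 2 those medians were 0.10 and 0.13. For the mitochondrial ribosome the median ran from 0.19 without DMSO 3 to 0.52 without DMSO 2, and for the proteasome it was 0.15 without DMSO 1 and 0.18 without rapamycin 2. The difference that remained without DMSO 3 and rapamycin 2 was 0.47 for Mrps33, 0.69 for Mrpl23, 0.48 for Psmb1, 0.45 for Dmac2l and 0.27 for Atp5me.

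Autophagy and lysosome genes had more separated, higher members than any other list by count, with a share equal to that of the endothelial markers. Of 39 genes, 15 were apart and higher (38.5%, against 8.6% of all clusters) and 1 lower, and the median was 0.19. Its mean level also separated the treatments, at 10.43, 10.50 and 10.30 under DMSO and 10.66, 10.67 and 10.67 under rapamycin. The mean levels of the serine and one-carbon, NRF2 target and mitosis lists were apart too, by smaller gaps. The autophagy median stayed between 0.17 and 0.25 whichever liver was left out. Gabarapl1, an ATG8 protein that lines autophagosomes, was at 10.43, 11.03 and 10.61 under DMSO and 11.69, 12.06 and 11.66 under rapamycin, a difference of 1.11 ± 0.22 (2.16-fold). Its relative Map1lc3b was at 11.29, 11.60 and 11.13 under DMSO and 11.77, 12.11 and 11.84 under rapamycin (0.57 ± 0.18). Map1lc3a, a further LC3 gene, was at 8.23, 8.43 and 7.92 under DMSO and 8.61, 8.95 and 8.82 under rapamycin (0.60 ± 0.20). For all 3 the lowest rapamycin liver was above the highest DMSO liver. Atg10, which conjugates ATG12, gave 0.58 ± 0.16. With DMSO 3 and rapamycin 2 left out, the difference was 0.36 for Map1lc3b and 0.39 for Map1lc3a. Without DMSO 3 and rapamycin 2, 21 of the 39 genes were apart and higher, where 15.5% of all clusters were.

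**Figure D3:**
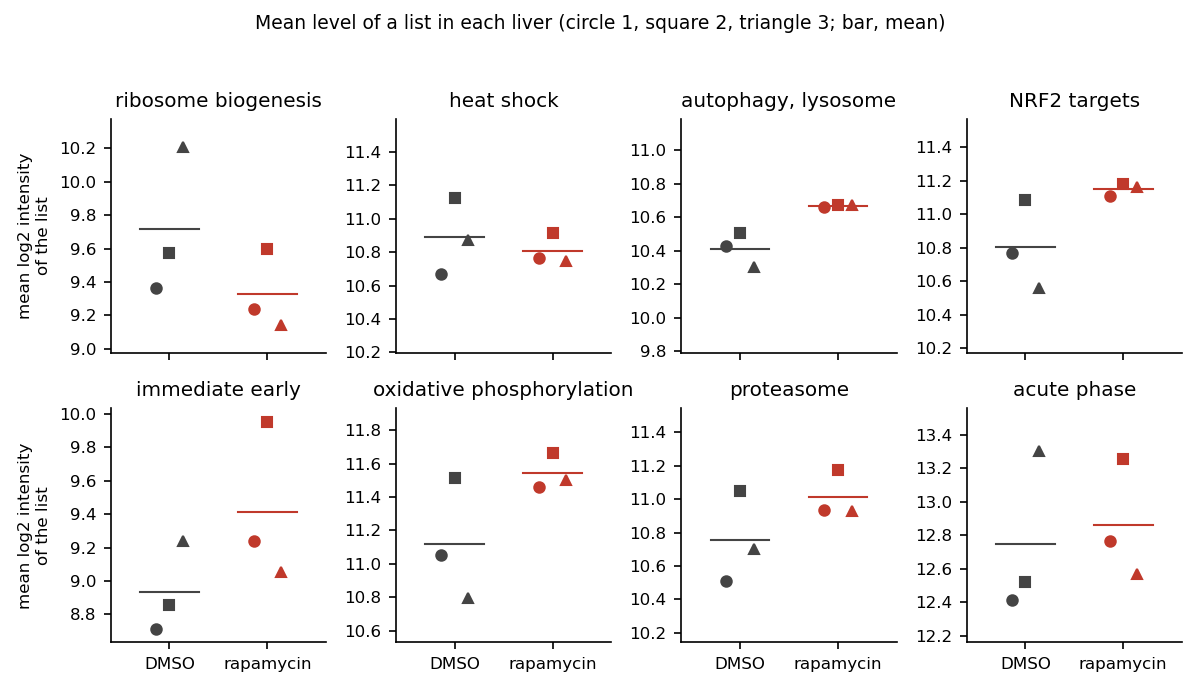
Mean log2 intensity of 8 gene lists in each refed liver (vertical axes, each spanning the same length), 1 point per liver and a bar at each group mean. The 3 rapamycin livers lay above all DMSO livers for the autophagy and lysosome list (10.66 to 10.67 against 10.30 to 10.50). The same held by a small gap for NRF2 targets (11.11 to 11.18 against 10.56 to 11.09). DMSO 3 was the highest liver for ribosome biogenesis (10.21), and DMSO 2 (11.51) lay among the rapamycin livers (11.46 to 11.66) for oxidative phosphorylation.

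Genes of the mTOR pathway itself were mostly overlapping. Mtor was at 10.56, 9.81 and 10.48 under DMSO and 10.26, 9.58 and 10.13 under rapamycin (-0.29 ± 0.28), and Rps6kb1, the S6 kinase, at 9.64, 9.41 and 10.18 under DMSO and 9.65, 9.67 and 9.52 under rapamycin (-0.13 ± 0.24). Eif4ebp1, a repressor of cap-dependent initiation that mTOR inactivates, was apart and higher, at 10.18, 10.90 and 10.47 under DMSO and 11.28, 11.60 and 11.20 under rapamycin, a difference of 0.84 ± 0.23. Its relative Eif4ebp2 was at 0.063 ± 0.24. Subunits of Ragulator, the lysosomal scaffold on which mTOR is activated, included Lamtor2 at 0.55 ± 0.20 with the groups apart and Lamtor4 at 0.70 ± 0.27 with overlap. Fkbp8, a membrane-bound FK506-binding protein, was apart at 0.45 ± 0.19. Of the 38 pathway genes 6 were apart and higher (15.8%, against 8.6% of all clusters) and 1 lower (2.63%, against 5.11%). The median was 0.061, running from -0.014 without DMSO 3 to 0.15 without DMSO 1. The difference that remained without DMSO 3 and rapamycin 2 was 0.011 for Mtor, 0.40 for Lamtor4 and 0.21 for Fkbp8.

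Several cytosolic chaperones were lower in all rapamycin livers, although the list as a whole shifted little. Of 37 heat shock genes 9 were apart and lower (24.3%, against 5.11% of all clusters) and 0 higher. The list median was -0.077, or -0.12 without DMSO 3 and rapamycin 2. Hsph1, a nucleotide exchange factor of HSP70, was at 11.19, 11.49 and 11.73 under DMSO and 10.77, 10.62 and 10.60 under rapamycin (-0.80 ± 0.19). The abundant constitutive chaperones were lower by a small and even amount: Hspa8 was at 14.18, 14.19 and 14.22 under DMSO and 14.02, 14.02 and 13.95 under rapamycin (-0.20 ± 0.059) and Hsp90ab1 at 13.38, 13.49 and 13.54 under DMSO and 13.26, 13.19 and 13.20 under rapamycin (-0.25 ± 0.085). Stip1, which bridges HSP70 and HSP90, gave -0.48 ± 0.15. Hsph1 is shown because its 250 upstream bases (chr12:10427118-10427367, plus strand, GRCr8) hold a heat shock element (GAA, any 2 bases, TTC, any 2 bases, GAA), read here from the opposite strand and marked in capitals, bases 36 to 24 before the start.
Hsph1: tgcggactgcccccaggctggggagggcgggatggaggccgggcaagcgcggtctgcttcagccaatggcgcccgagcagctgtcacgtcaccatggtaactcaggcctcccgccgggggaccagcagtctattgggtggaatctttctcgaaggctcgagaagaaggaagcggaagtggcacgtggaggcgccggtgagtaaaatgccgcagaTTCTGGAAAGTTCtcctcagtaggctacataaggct
That element was in 4 of the 30 heat shock promoters found (13.3%) and in 0.663% of all promoters.

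Chaperones and other genes of the endoplasmic reticulum had a similar share of lower members. Of 35 genes 9 were apart and lower (25.7%, against the same 5.11%) and 1 higher, with a median of -0.14. Besides chaperones that list holds other genes, such as Sec61a1, Atf6 and Xbp1, and it holds Hspa4, which is counted in the heat shock list too. Hyou1, an HSP70 relative of the secretory pathway, was at 12.06, 12.42 and 12.53 under DMSO and 11.91, 11.83 and 11.43 under rapamycin (-0.61 ± 0.19). Hspa5, the main HSP70 of that compartment, was at 13.998, 14.03 and 14.11 under DMSO and 13.85, 13.86 and 13.79 under rapamycin (-0.21 ± 0.066). The ubiquitin ligase Syvn1 (-0.62 ± 0.20) and the oxidase Ero1a (-0.57 ± 0.20) were apart too, and Syvn1 was at -0.33 without DMSO 3 and rapamycin 2. Leaving out each liver in turn kept the median of this list between -0.25 and -0.090, and that of the heat shock list between -0.19 and 0.010, the last value without DMSO 2.

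**Figure D4:**
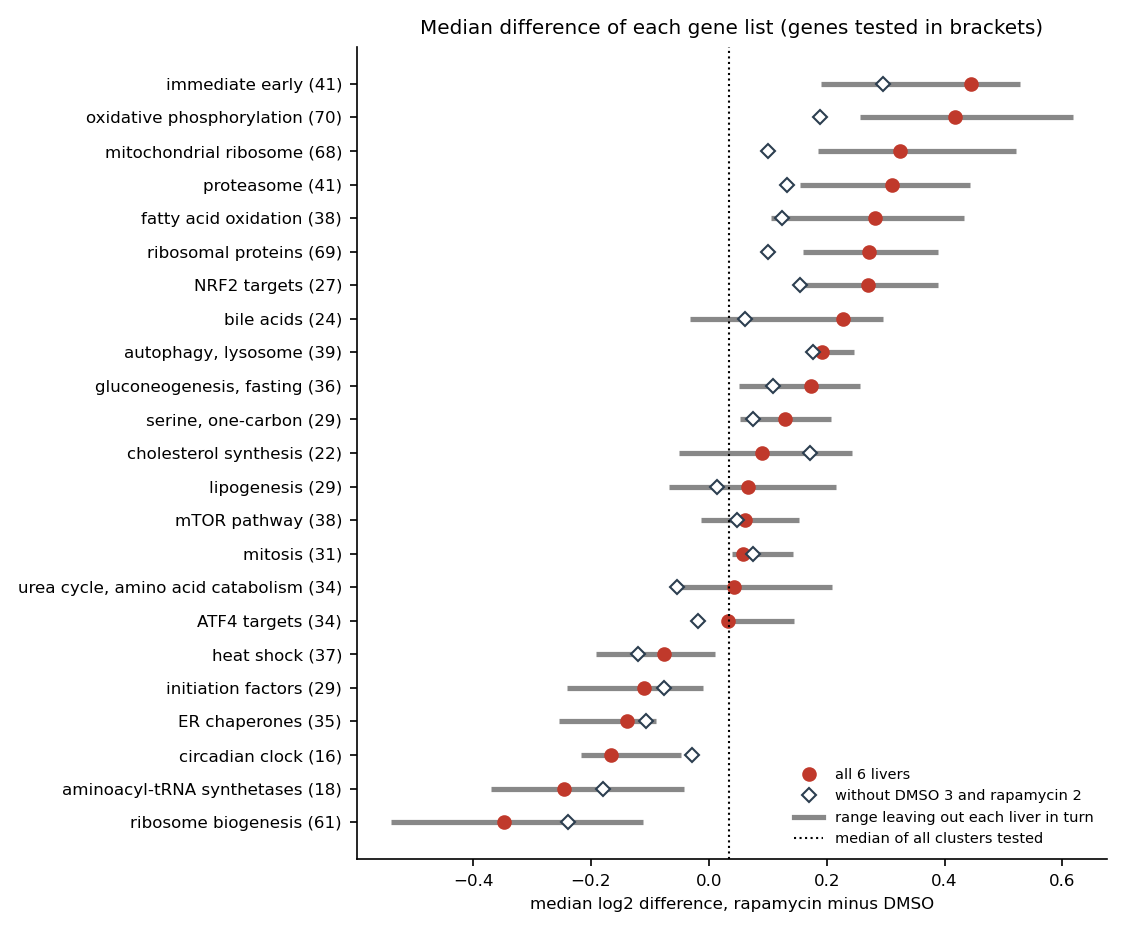
Median log2 difference, rapamycin minus DMSO (horizontal axis), over the tested genes of 23 lists: circles use all 6 livers, diamonds leave out DMSO 3 and rapamycin 2, grey bars span the values with each liver left out in turn, and the dotted line is the median of all clusters (0.03). The bar of ribosome biogenesis (-0.54 to -0.11) stays below the line and that of autophagy (0.17 to 0.25) above it, while the bars of bile acids and lipogenesis cross it.

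Immediate early genes had the largest positive median of the lists, 0.45 over 41 genes, with 9 apart and higher (22%, against 8.6% of all clusters) and 0 lower. Egr1, a zinc-finger factor switched on within minutes by growth signals, was at 10.05, 10.62 and 10.01 under DMSO and 11.96, 11.55 and 11.11 under rapamycin, a difference of 1.32 ± 0.28 (2.49-fold). Ccn1, a matricellular protein (9.71, 9.88 and 8.72 under DMSO and 10.51, 10.78 and 10.47 under rapamycin), and Dusp6, a phosphatase of ERK (10.21, 10.57 and 10.32 under DMSO and 11.22, 11.85 and 10.79 under rapamycin), were apart as well, Ccn1 by 1.15 with all livers and 0.70 without DMSO 3 and rapamycin 2. The list mean was 8.71, 8.86 and 9.24 under DMSO and 9.24, 9.95 and 9.05 under rapamycin, so rapamycin 2 was far above the rest and DMSO 3 was level with rapamycin 1. Without rapamycin 2 the median was 0.19, and without DMSO 3 and rapamycin 2 it was 0.30 with 21 of 41 apart and higher, where 15.5% of all clusters were. The acute phase list also peaked in DMSO 3 and rapamycin 2, at 12.41, 12.52 and 13.31 under DMSO and 12.76, 13.25 and 12.57 under rapamycin. The motif TNACGTCA was in 8 of the 32 immediate early promoters found (25%).

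Detoxification genes included the gene with the smallest p among the higher ones. Akr7a3, an aldehyde reductase that inactivates aflatoxin products, was at 11.16, 11.63 and 11.35 under DMSO and 12.43, 12.55 and 12.37 under rapamycin, a difference of 1.07 ± 0.16 (2.10-fold), and each group spanned less than 0.5. It is a target of the oxidative stress factor NRF2, and of 27 such targets 6 were apart and higher (22.2%, against 8.6% of all clusters) and 1 lower, with a median of 0.27, or 0.16 without DMSO 3 and 0.15 without DMSO 3 and rapamycin 2. Glutathione reductase, Gsr, was at 10.81, 11.28 and 10.48 under DMSO and 11.50, 11.87 and 11.58 under rapamycin (0.80 ± 0.24), and Gclm, the modifier subunit of glutathione synthesis, at 11.10, 11.58 and 10.37 under DMSO and 11.80, 11.78 and 11.68 under rapamycin (0.74 ± 0.29). Gstm5, a glutathione transferase, gave 1.16 ± 0.23. Among 29 cytochromes P450 of families 1 to 3, 5 were apart and higher (17.2%, against 8.6% of all clusters) and 0 lower. Cyp2j4 led them at 0.92 ± 0.32, and Cyp2b2 gave 0.37 ± 0.15. The P450 median was 0.13, or 0.037 without DMSO 3 and rapamycin 2. With DMSO 3 and rapamycin 2 left out, the difference was 0.50 for Gsr and 0.40 for Gclm.

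Fatty acid oxidation genes leaned to higher values, and bile acid genes had a median below 0 once DMSO 3 was left out. In the oxidation and ketogenesis list 6 of 38 were apart and higher (15.8%, against 8.6% of all clusters) and 0 lower. The list median was 0.28, or 0.11 without DMSO 3, 0.43 without DMSO 2 and 0.12 without DMSO 3 and rapamycin 2. Bdh1, the ketone body dehydrogenase, was at 12.03, 12.19 and 11.71 under DMSO and 12.55, 12.39 and 12.50 under rapamycin (0.50 ± 0.16), and the thioesterase Acot2 gave 0.61 ± 0.23. Cpt1a, the gate of mitochondrial fatty acid import, overlapped (12.29, 12.14 and 11.55 under DMSO and 12.44, 12.22 and 12.59 under rapamycin). Of 24 bile acid genes 3 were apart and higher (12.5%, against 8.6% of all clusters) and 1 lower (4.17%, against 5.11%). Those above were Amacr (0.45 ± 0.19), Cyp27a1 (0.41 ± 0.19) and Baat (0.31 ± 0.17). The median of the bile acid list was 0.23 with all livers, -0.033 without DMSO 3 and 0.061 without DMSO 3 and rapamycin 2. Leaving out rapamycin 1 gave 0.075 and leaving out rapamycin 3 gave 0.073. The difference that remained without DMSO 3 and rapamycin 2 was 0.28 for Amacr, 0.17 for Cyp27a1 and 0.20 for Baat. The hormone gene Fgf21 ranged from 6.89 to 9.17 within the DMSO group alone.

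Clock genes were split, with Cry1 lower and Npas2 higher. Cry1, a repressor of the clock, was at 8.95, 9.27 and 9.02 under DMSO and 8.17, 8.23 and 7.98 under rapamycin, a difference of -0.95 ± 0.18. The livers within each group were close for Cry1 and the groups were apart. Npas2, a partner of BMAL1, was at 9.49, 9.72 and 8.99 under DMSO and 10.08, 10.06 and 10.29 under rapamycin (0.74 ± 0.24), and Clock, its paralogue, was lower (-0.39 ± 0.22). The period genes overlapped widely, with Per1 at 8.25, 7.24 and 10.42 under DMSO and 8.48, 8.23 and 6.94 under rapamycin and Per2 at 10.52, 9.29 and 8.36 under DMSO and 8.50, 7.09 and 8.96 under rapamycin. Over 16 clock genes 1 was apart and higher (6.25%, against 8.6% of all clusters) and 2 lower (12.5%, against 5.11%), and the median was -0.17. It was -0.051 without DMSO 1, -0.048 without rapamycin 2 and -0.029 without DMSO 3 and rapamycin 2, where Clock was at -0.19.

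Several leading genes belonged to none of the lists. Klhl24, a ubiquitin ligase adaptor, was at 9.20, 9.23 and 9.42 under DMSO and 10.26, 10.36 and 10.02 under rapamycin (0.93 ± 0.19), and Lztfl1, a ciliary trafficking protein, at 7.57, 7.56 and 7.49 under DMSO and 8.15, 8.59 and 8.69 under rapamycin (0.94 ± 0.18). The oestrogen receptor gene Esr1 was at 8.03, 7.58 and 7.69 under DMSO and 8.50, 9.23 and 8.77 under rapamycin (1.07 ± 0.23). Serpina3m, a secreted protease inhibitor, had a small and even difference of 0.60 ± 0.14. For all 4 the groups were apart. Other clusters of Esr1 and Map1lc3b, at 0.54 and 0.81, were apart in the same direction.

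Among the lower genes, Ints2, a subunit of the Integrator complex, was at 9.32, 9.26 and 9.80 under DMSO and 8.13, 8.05 and 8.21 under rapamycin, a difference of -1.33 ± 0.20, a 2.52-fold lower mean. The 3 rapamycin livers were close together and far below the DMSO livers. The imprinted noncoding RNA H19 was lower in both of its transcript clusters, at 10.52, 10.06 and 10.67 under DMSO and 9.40, 8.74 and 8.99 under rapamycin in one (-1.37 ± 0.26) and by -1.44 ± 0.32 in the other. Ogfod1, a prolyl hydroxylase of ribosomal protein S23, was at 9.97, 9.66 and 10.41 under DMSO and 8.75, 8.75 and 8.89 under rapamycin (-1.22 ± 0.23). Dph5, an enzyme of the diphthamide modification of elongation factor 2, was at 8.10, 8.15 and 8.05 under DMSO and 7.29, 7.46 and 7.48 under rapamycin (-0.69 ± 0.14). Nup205, of the nuclear pore, gave -0.96 ± 0.22 and the splicing factor Sf3a1 -0.82 ± 0.20, and for both, as for Ints2 and Ogfod1, DMSO 3 was the highest liver.

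The smallest p of all belonged to a dim cluster whose value other probes of the gene did not share. One cluster of Ccnb2, cyclin B2 of mitosis, was at 5.46, 5.88 and 5.40 under DMSO and 4.27, 3.71 and 3.44 under rapamycin (-1.77 ± 0.22), below the log2 intensity of 6.70 that the filter asked of the mean over all 40 arrays, which it passed through livers of other models. The other Ccnb2 cluster overlapped, at -0.22 ± 0.14. Over 31 mitosis genes 3 were apart and higher (9.68%, against 8.6% of all clusters) and 1 lower (3.23%, against 5.11%). Nusap1 was at 0.40 ± 0.13 and Bub1 at 0.37 ± 0.15. The list averaged 5.88, 5.99 and 5.90 under DMSO and 6.01, 6.02 and 6.01 under rapamycin, levels below the filter value of 6.70. Nusap1 was below it in every refed liver, at 5.20, 5.21 and 5.50 under DMSO and 5.78, 5.80 and 5.53 under rapamycin. The G1 inhibitor Cdkn2c (0.81 ± 0.22) and Ccng2 (0.66 ± 0.21), a FOXO-induced cyclin, were apart and higher, Ccng2 by 0.34 without DMSO 3 and rapamycin 2. They were 2 of 24 G1 genes tested, a share near that of all clusters (8.33%, against 8.6%), and 0 were lower. The G1 list median was 0.065, or 0.023 without DMSO 3 and rapamycin 2.

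Other large separated differences came with a wide spread within a group. Ephx2, soluble epoxide hydrolase, was at 7.66, 9.89 and 6.598 under DMSO and 10.18, 11.14 and 10.36 under rapamycin (2.51 ± 0.75), and the DMSO livers alone spanned more than 3. Without DMSO 3 and rapamycin 2 its difference was 1.49. Rnf186, a ubiquitin ligase, was at 6.90, 7.36 and 7.36 under DMSO and 8.22, 11.04 and 8.004 under rapamycin, so rapamycin 2 supplied most of its difference of 1.88, which was 0.98 without DMSO 3 and rapamycin 2. The chemokine Cxcl13 was at 7.43, 7.42 and 6.25 under DMSO and 8.76, 9.23 and 7.89 under rapamycin, 1.59 ± 0.42 with all livers and 0.90 without DMSO 3 and rapamycin 2. Lrtm2, a membrane protein with leucine-rich repeats, was at 7.71, 8.07 and 6.73 under DMSO and 9.75, 8.32 and 8.61 under rapamycin (1.39 ± 0.45). Over all clusters the median SD among DMSO livers was 0.28 and among rapamycin livers 0.18.

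Polysome RNA, matched to total RNA by treatment and liver number, was taken to come from the same livers, which the labels do not say outright, and its values are set beside those of total RNA without counting them as further livers. The polysome difference came to 2.09 for Pck1, 1.10 for Psat1, 0.89 for Akr7a3, 1.604 for Egr1 and -1.24 for Cry1. For Gabarapl1 it was 0.54 and for Ints2 -0.76, against 1.11 and -1.33 in total RNA. The list medians in polysome RNA were 0.14 for autophagy and -0.42 for ribosome biogenesis, but -0.018 for oxidative phosphorylation, 0.0041 for the proteasome and -0.27 for ribosomal proteins. Whether a gene's difference itself differed between fractions was tested on the polysome minus total value of each number, which rests on that match: 0 of 10860 clusters passed in limma (smallest adjusted p 0.535), and 8.37% were under an unadjusted 0.05. The 5 with the smallest p were the ribosomal protein genes Rpl36, Rpl37a, Rps28, Rpl13a and Rpl35a, each higher under rapamycin in total RNA and lower in polysomes, by 0.45 and -0.42 for Rpl36. The count of 0 depended on DMSO 2: without it 1722 clusters passed, 436 with a higher and 1286 with a lower polysome difference.

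Total RNA of livers taken 24 h after removal of most of the liver, also from rats given rapamycin or DMSO, served as the other adult setting. Its 6 arrays share no liver with the refed ones. The hepatectomy titles give 24 h beside the drug, whereas the refed rats were injected 60 min before 3 h of food. No fast is listed for the hepatectomy rats. Surgery, timing and feeding state therefore cannot be told apart in this comparison. One gene (0.00921% of the clusters tested) differed in its response to the drug between the settings in a limma fit of the 12 arrays, and 12.3% of clusters were under an unadjusted p of 0.05. Psat1 was 1.39 ± 0.23 in refed livers and -1.86 ± 0.18 in hepatectomy livers, where it was at 10.55, 10.82 and 11.31 under DMSO and 9.04, 9.06 and 9.0004 under rapamycin. The difference of the differences was 3.25 ± 0.29 (SE, adjusted p = 0.0017 over 10860 clusters), and the call held with each refed liver left out in turn. The dimmer Psat1 cluster lay on the same sides, at 0.62 and -0.30, and its difference did not pass (0.92, adjusted p = 0.21). Phgdh showed the same opposition, 0.95 ± 0.28 against -1.51 ± 0.21, and did not pass (adjusted p = 0.132). Without rapamycin 3 both genes passed, and without DMSO 2 there were 969 calls, 819 of them with the higher value in refed livers, so the number of genes that separate the settings rested on that liver.

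Other leading genes had no test of the difference between settings that passed. Pck1 was at 0.076 ± 0.23 there and Akr7a3 at -0.37 ± 0.33, with adjusted p of the difference between settings of 0.21 and 0.25. Klhl24 was at 0.87 ± 0.28, Slc6a9 at 0.88 ± 0.33, Esr1 at 0.87 ± 0.15 and Serpina3m at 1.01 ± 0.22 after hepatectomy, all above 0 as in refed livers. The mitosis list, near 0 in refed livers, had a median of -1.68 after hepatectomy, when hepatocytes divide. Its refed levels, 5.88 to 6.02, were below the intensity filter and left little room for lower values, so the medians of the 2 settings are not comparable. Ribosome biogenesis (-0.24) and autophagy (0.10) had medians on the same side of 0 in both settings.

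**Figure D5:**
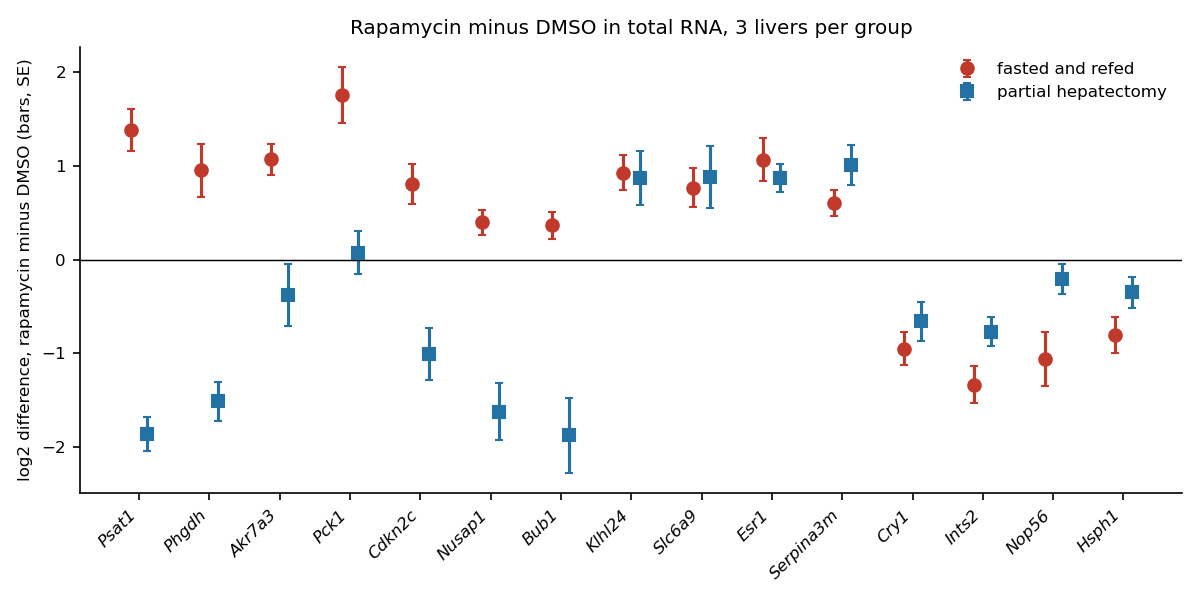
Log2 difference, rapamycin minus DMSO, in total RNA (vertical axis, bars SE) of 15 genes in refed livers (circles) and in livers after partial hepatectomy (squares), 3 livers per group. Psat1 lies at 1.39 in refed and -1.86 in hepatectomy livers, the one gene whose responses differed, while Klhl24, Slc6a9, Esr1 and Serpina3m lie above 0 in both.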

How the data were processed

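Liver RNA was measured on single-colour arrays, 1 per sample and fraction. The deposited values are linear intensities summarised per transcript cluster; the authors ran RMA on them, per the submitters' processing notes. Its version and settings, and which arrays were normalized as a set, are not stated in the labels used here. Groups came from the sample titles. Intensities were log2-transformed with no pseudocount. Of 28826 clusters, 15209 had 1 gene symbol, 306 several and 13311 none here. Symbols were checked against RefSeq GRCr8. Testing was limited to the 10860 clusters with a symbol whose mean over the 40 arrays reached 6.70, the 30th percentile of named clusters. Tests used limma 3.58.1 in R 4.3.3 (lmFit, eBayes with intensity trend) with Benjamini-Hochberg adjustment over all clusters tested, unpaired, threshold 0.05, and were tested on simulated data.

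Genes were named for the smallest p and the largest separated differences, for the smallest p in each list, for wide spread within a group, or from a fixed set. Members, lists and named genes were chosen with earlier results of these data known. Alternatives were other scalings, filters, fits, a pseudocount of 16 and leaving out livers. Median log2 intensity per array was 7.18 to 7.26, and no 2 of the 6 arrays held the same values (smallest root mean square difference 0.30). The number of arrays limits the precision. RMA equalises arrays, so a change common to all mRNAs cannot be seen. Polysome RNA came from pooled polysome preparations, per the labels' protocols, and each was taken as 1 liver: deviations from the group mean correlated at 0.46 to 0.82 across clusters between the total and polysome arrays of a liver.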

Additional observations from a re-analysis of the deposited data

Results flagged for a closer look

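Psat1 was singled out because its response to rapamycin differed between refed livers and livers after partial hepatectomy in a direct limma test of that difference. The refed minus hepatectomy value was 3.25 ± 0.29 (log2, SE), with 1.39 in refed and -1.86 in hepatectomy livers. All 3 refed rapamycin livers were above, and all 3 hepatectomy rapamycin livers below, the DMSO livers of their own setting. Surgery, timing and feeding state differed together between the settings and cannot be told apart. Groups of 3 livers were too small to test single livers as outliers.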

How the results depend on the processing

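No cluster passed the adjusted threshold in the comparison of refed total RNA under any alternative run, in limma; counts at an unadjusted p under 0.05 ran from 287 (DMSO 3 and rapamycin 2 left out, chosen after seeing the data) to 2415 (without DMSO 2), against 805. G6pc1, Ppargc1a, Cyp7a1, Pklr and Scd changed sign with a single liver left out and were not among the 107 gene results counted. Of those 107, 101 kept their direction in every alternative. Exceptions when both livers were left out were Mtor (0.011), Rps6 (-0.064) and Rps6kb1 (0.057); after cyclic loess and quantile scaling they were Rps6 (-0.023, -0.012) and Eif4ebp2 (-0.061, -0.050). With single livers left out, Alb ran from -0.039 to 0.0078, Eif4ebp2 from -0.090 to 0.26, Per1 from -1.45 to 0.14 and Rps6kb1 from -0.30 to 0.085. Of 43 list medians, those that moved by over 1 SD of the mean level of the list between livers of a group are given here. Cyclic loess moved serine and one-carbon genes to 0.0065, glycolysis to -0.075, hepatocyte markers to -0.10 and endothelial markers to 0.18; quantile scaling moved glycolysis to -0.041, mitosis to -0.0018 and endothelial markers to 0.18; median centring moved glycolysis to -0.016, mitosis to 0.0052, hepatocyte markers to -0.038 and endothelial markers to 0.19. The 50th percentile filter gave mitosis 0.15, endothelial 0.21, bile duct -0.21 and lymphocyte markers 0.22; the filter on 6 arrays gave mitosis 0.12; the mean over clusters gave glycolysis 0.064; both livers out gave glycolysis 0.0056 and endothelial markers 0.17. With single livers left out, glycolysis ran from -0.00050 to 0.058, endothelial from 0.16 to 0.28, lymphocyte from -0.0067 to 0.27, platelet from -0.089 to 0.14 and mitosis from 0.039 to 0.14. Within 1 SD, medians that changed sign included bile acid (-0.033 without DMSO 3), lipogenesis (-0.068 without DMSO 3), P450 genes (-0.022 without DMSO 3), urea cycle (-0.047 without DMSO 3) and cholesterol (-0.051 without rapamycin 3). Calls of a different response after hepatectomy ran from 1 to 969 and between fractions from 0 to 1722 with single livers left out. The replicate numbers did not pair the livers (correlations 0.37, 0.038 and -0.46); a replicate block gave 0 calls in the refed comparison, 586 between fractions and 0 between settings (Psat1 adjusted p = 0.097). The cause of these shifts was not tested.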

Other observations

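A few genes differed between livers by several log2 units with no relation to treatment. The cluster named Ugt2b, a glucuronosyltransferase gene, was at 11.02, 6.02 and 11.68 under DMSO and 11.99, 11.70 and 5.28 under rapamycin, so DMSO 2 and rapamycin 3 were the low livers. Polysome RNA of the same livers gave 10.65, 5.59 and 11.49 under DMSO and 11.61, 11.27 and 6.88 under rapamycin, with the same livers low. Ugt2b37, a related gene, did not share that split. It was at 11.40, 11.88 and 10.21 under DMSO and 11.88, 12.11 and 12.29 under rapamycin, with DMSO 3 the lowest liver.

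Some inflammatory genes were high in rapamycin 2 with a lesser value in DMSO 3. The chemokine gene Ccl2 was at 12.53 in rapamycin 2 and 10.48 in DMSO 3, against 7.37 to 8.57 in the other 4 livers. The stress factor gene Atf3 was at 11.21 in rapamycin 2 and 8.48 in DMSO 3. Angptl4, an inhibitor of lipoprotein lipase, was at 12.02 in rapamycin 2 and 9.73 in DMSO 3. In polysome RNA Ccl2 was at 11.78 and 10.85 in those livers.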
